A study of Saccharomyces cerevisiae with 7 samples.

Results

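Enzyme genes for the synthesis of histidine, the branched-chain amino acids, lysine, the aromatic amino acids and threonine, together with the regulator gene GCN4, were followed through a meiotic time course of a budding yeast mutant. The 36 members were listed by gene name, with earlier results of these data known, from the 6141 open reading frames of the table: 5 for histidine, 9 for the branched-chain amino acids, 7 for lysine, 9 for the aromatic amino acids, 5 for the path from aspartate to threonine, and GCN4. The strain, Saccharomyces cerevisiae, was labelled as deleted for both CLB5 and CLB6, the B-type cyclin genes that act at the start of S phase, in every library. Poly(A) RNA from 1 culture sample each at 1, 2, 3, 4, 5, 6 and 8 h was labelled with Cy5 and hybridised against a Cy3-labelled mix of RNA from the time points. Each value is a log2 ratio to the same strain at 0 h, so that 1 unit above 0 is a 2-fold higher and 1 unit below 0 a 2-fold lower mRNA share than at 0 h. In a culture sample, a change in every cell and a change in the share of cells that express a gene cannot be told apart.

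In this yeast the enzymes of these pathways are known as targets of general amino acid control, in which starvation for an amino acid raises the translation of GCN4 mRNA and the Gcn4 protein activates genes in many synthesis pathways at a time. Much of this control acts on translation, so GCN4 mRNA is not a measure of Gcn4 protein. Cells enter meiosis when nitrogen and fermentable carbon run out, and they then draw amino acids largely from the breakdown of their own proteins.

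Between 5625 and 5810 genes had a value in each library and 5349 had one in all 7; library medians lay between -0.01 and 0.09, while the SD over genes went from 0.96 at 1 h to 1.65 at 8 h. The last library is titled 8 h but its source name says 6 h, and it is used here under its title. IME2, a meiotic kinase gene, stood between 3.48 and 5.88, and NDT80, the middle meiotic transcription factor gene, went from -0.56 at 1 h to 6.18 at 6 h, which fits the meiotic label. The genes labelled as deleted gave values in all 7 libraries. CLB5 stood at 1.40 at 1 h, -0.51 at 4 h and 1.20 at 8 h, and CLB6 at -0.53 at 2 h and 1.27 at 8 h. What their probes read is not given in the sources used here, and these ratios within the mutant give no level, so the deletions rest on the labels. The mutant was not set against a wild-type course here. The alleles of common marker genes such as HIS3, HIS4, LYS2, LEU2 and TRP1 in this strain are not stated in the labels; each had a value in all 7 libraries.

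The first question was how the pathways as a group stood against 0 h. Most of the genes were high at 1 h, their median was back at the 0 h level by 2 h, and it stayed below that level from 3 h on. From 1 h to 8 h, the medians of the 35 enzyme genes over the successive libraries were 1.01, -0.01, -0.39, -0.70, -1.13, -1.04 and -0.85. The median of all genes stayed between -0.01 and 0.09 in the same libraries. Of the 36 members, 18 were at least 2-fold higher than 0 h at 1 h, 4 at 2 h, 1 at 3 h and none from 4 h on. Among all genes the share that was 2-fold higher went the other way, at 12%, 12.9%, 13.8%, 17.6%, 18.8%, 19.6% and 22.7% over the 7 libraries. No member was 2-fold lower at 1 or 2 h, while 6 of 36 were at 3 h, 14 at 4 h, 18 at 5 h, 19 at 6 h and 14 of 35 with a value at 8 h. Over the same libraries, 2-fold lower genes made up 12.1%, 12.3%, 13%, 15.7%, 18.2%, 19.3% and 20.5% of all genes with a value. When the spread of the libraries was made equal, or after quantile normalization, the count of lower members at 8 h was 9. The share of all genes under these scalings is not given here.

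The 0 h array enters every value of a gene as the same constant. Set against the 1 h library instead, where that array cancels, 17 of 36 members were at least 2-fold lower at 2 h, 25 at 3 h, 29 at 4 h, 30 at 5 h, 31 at 6 h and 28 of 35 at 8 h. Of all genes, 2.81%, 6.18%, 9.65%, 12.3%, 13.3% and 17.1% were lower at these times. No member was 2-fold higher than at 1 h in any library, where 3.55%, 5.48%, 9.28%, 11.8%, 14.1% and 18.8% of all genes were. From 1 h to 2 h, 33 of 36 members went down, where 54.9% of all genes did. The median change was -0.88 against -0.06 for all genes. The steps from 2 to 3 h and from 3 to 4 h had medians of -0.46 and -0.42, with 31 and 34 members going down. Of all genes 48.1% and 46.8% went down in these steps, with a median of 0.02 in both. From 6 to 8 h the median change was 0.01, with 17 members down and 18 up. Of all genes 48.2% went down in that step, with a median of 0.03. Of the 35 members without a gap, 31 were highest at 1 h, and 25 had their largest drop between 1 and 2 h. The share of all genes for either count is not given here. Against 1 h, the weight of these counts rests on that 1 library, which had no replicate.

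**Figure D1:**
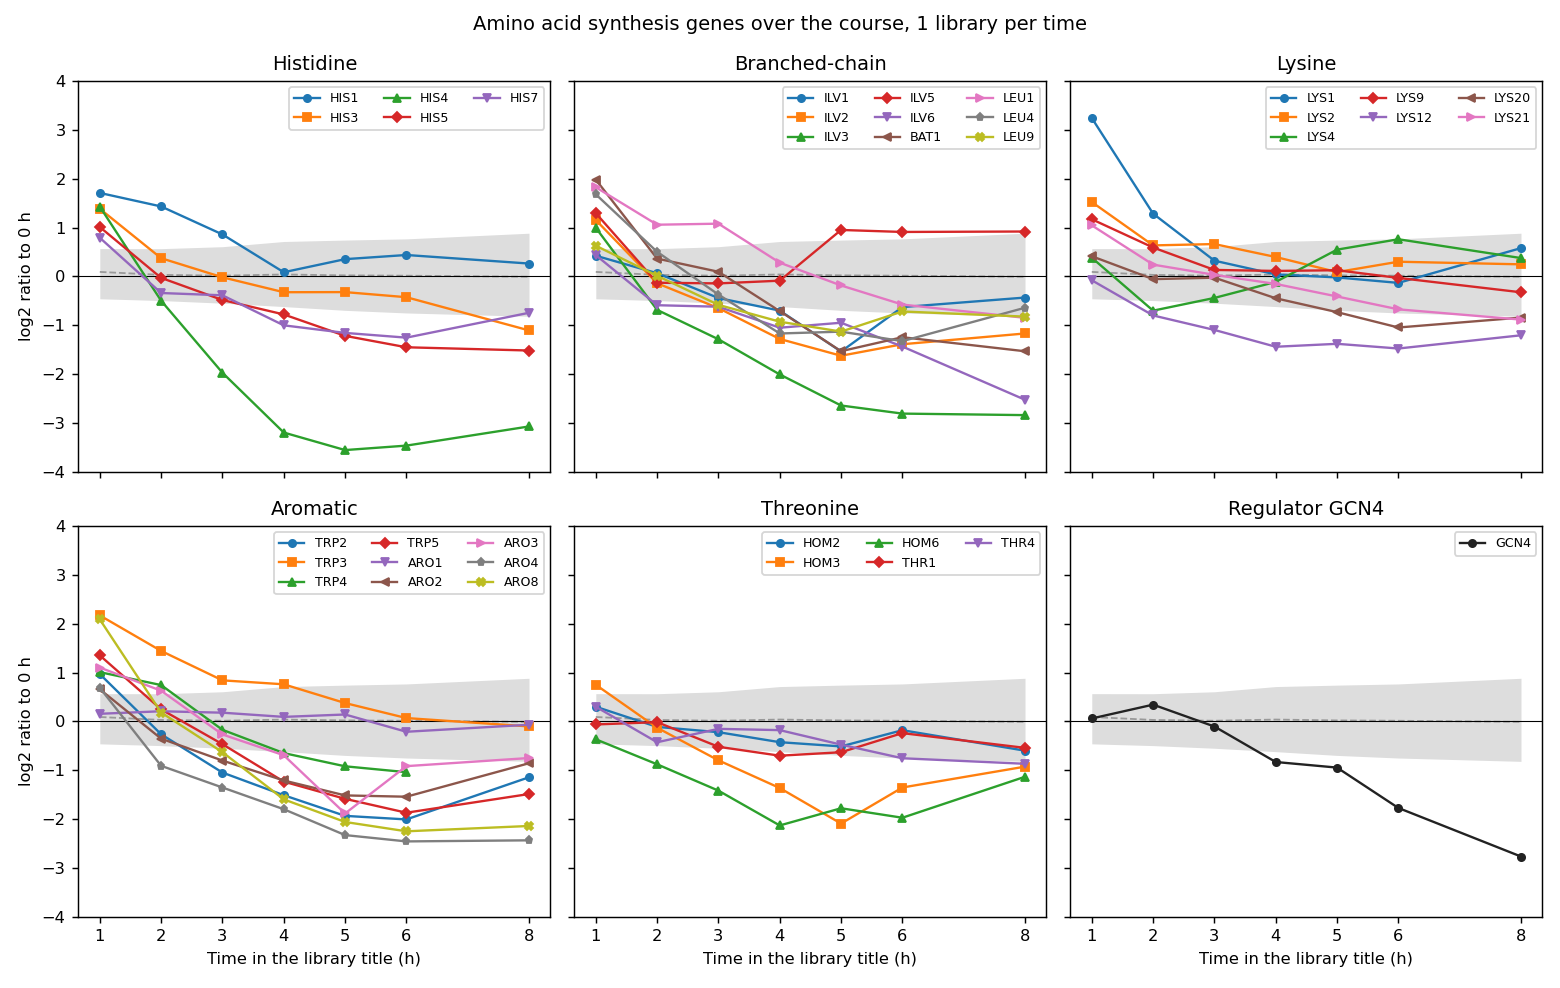
Log2 ratio to 0 h (vertical axis) against time in h (horizontal axis) for each member, in 1 panel per pathway; points are single libraries, the grey band is the interquartile range of all genes and the dashed line is their median. Most lines start above the band at 1 h and lie below 0 from 3 h on, HIS4 reaches -3.56 at 5 h, and ILV5 and LYS4 turn upward in the middle of the course.

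The trend over time was tested with limma as a straight slope across the 7 libraries, and "fell" or "rose" below means that the slope passed a Benjamini-Hochberg adjusted p of 0.05 over all 5349 genes. "Changed" means that a curved trend, fitted as a natural spline on 2 degrees of freedom, passed the same threshold. These p-values measure the scatter of successive samples of 1 course around a fitted line, not the spread between cultures. Of the 35 members tested, 20 fell and none rose, where 15.1% of all genes fell and 18% rose. No member rose at an unadjusted limma p under 0.05 either, nor with robust eBayes. By the spline 30 of 35 changed (background 61%), and all 30 had a fitted end below the fitted start, where 31.5% of all genes tested changed with a lower fitted end. The median slope of the members was -0.25 log2 units per h against -0.01 for all genes. The missing member is TRP4, which has no value at 8 h. Without the 1 h library 15 members fell and ILV5 and LYS4 rose, and without the 8 h library 30 of 36 fell. In 5, 6 and 8 h against 1, 2 and 3 h, 16 fell. The share of all genes that fell or rose in these and the later refits is not given here.

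The pathways are set side by side by how many members fell. The counts were 4 of 5 for histidine, 6 of 9 for the branched-chain amino acids, 3 of 7 for lysine, 5 of 8 tested for the aromatic amino acids and 1 of 5 for threonine. With 15.1% of all genes falling, the threonine count is near the background, and it was 0 with equal spread, after quantile normalization, in late against early libraries and without the 1, 3, 5 or 6 h library, and 2 without the 8 h library, with 8 h taken as 6 h and with ranked times. The median slopes were -0.30, -0.33, -0.18, -0.31 and -0.13 log2 units per h in the same order. At 1 h the median log2 ratios were 1.38, 1.15, 1.04, 1.01 and 0.30, with the threonine genes lowest. At 5 h they were -1.16, -1.13, -0.02, -1.58 and -0.63, with the lysine genes near their 0 h level and the aromatic genes lowest. At 8 h the medians were -1.11, -0.85, -0.33, -1.0 and -0.87. At 1 h the lowest histidine gene (0.79) stood just above the highest threonine gene (0.75); otherwise the ranges of any 2 pathways overlapped in every library. No test was made between pathways. Without the 8 h library the count was higher in every pathway. It was 5 of 5 for histidine, 8 of 9 for branched-chain, 6 of 7 for lysine, 8 of 9 for aromatic and 2 of 5 for threonine genes. The lysine count was also 6 with 8 h taken as 6 h. The share of all genes in these fits is not given here, so no reading particular to lysine is drawn. Without the 1 h library no threonine gene fell.

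**Figure D2:**
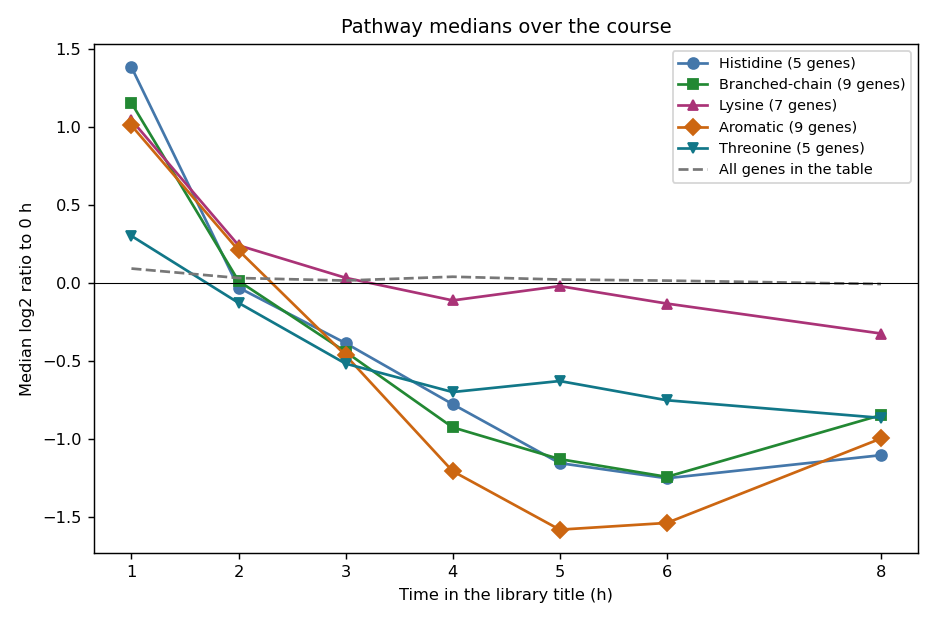
Median log2 ratio to 0 h (vertical axis) of each pathway's genes against time in h (horizontal axis), with the median of all genes as a dashed line. Histidine starts highest at 1.38 and threonine lowest at 0.30, and from 3 h on the lysine median stays nearest to 0.

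Histidine is made in a linear path, and 1 of its genes, HIS4, went lower than any other member. HIS1 (YER055C) codes for ATP phosphoribosyltransferase, the committed first step. HIS7 (YBR248C) makes the imidazole ring precursor, HIS3 (YOR202W) and HIS5 (YIL116W) code for a dehydratase and an aminotransferase further down, and HIS4 (YCL030C) for a protein with 3 enzyme activities of the path. HIS4 stood at 1.43, -0.50, -1.97, -3.20, -3.56, -3.47 and -3.07 at 1, 2, 3, 4, 5, 6 and 8 h. It was high in the first library only, dropped by steps until 5 h and then stayed low. Its slope was -0.63 ± 0.16 (SE) log2 units per h (limma adjusted p = 0.0147), the steepest of the members in the main fit. With the spread of the libraries made equal it was -0.53 (limma adjusted p = 0.0581), and that of ARO8 was steeper at -0.55. Without the 1 h library it was -0.40, and that of GCN4 was steeper at -0.52.

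HIS3 and HIS5 fell as well and were lowest in the 8 h library. HIS3 stood at 1.38, 0.37, -0.02, -0.32, -0.32, -0.43 and -1.11 over the 7 libraries, with a slope of -0.30 ± 0.05 (limma adjusted p = 0.00345). HIS5 stood at 1.01, -0.03, -0.48, -0.78, -1.22, -1.45 and -1.52 and had a slope of -0.35 ± 0.06 (limma adjusted p = 0.00292). Both kept falling calls with each library left out in turn; in 5, 6 and 8 h against 1, 2 and 3 h that of HIS3 was lost (limma adjusted p = 0.0610). HIS1, by contrast, never went below its 0 h level: it stood at 1.71, 1.43, 0.86, 0.08, 0.35, 0.44 and 0.26. Its slope was -0.21 ± 0.06 (limma adjusted p = 0.0280), and the call was lost without the 1 h (adjusted p = 0.0964), 2 h (0.0861) or 6 h library (0.0561); the slope was -0.33 (0.0210) after quantile normalization. HIS7 had values between -1.25 at 6 h and 0.79 at 1 h; its line did not pass (limma adjusted p = 0.0588), but it changed by the spline (adjusted p = 0.000776).

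The branched-chain path makes isoleucine and valine with shared mitochondrial enzymes, and a side branch leads to leucine. ILV1 (YER086W), the threonine deaminase that opens the way to isoleucine, stood at 0.42 at 1 h, -1.54 at 5 h and -0.43 at 8 h; its line did not pass (limma adjusted p = 0.192), and it changed by the spline (0.00768). ILV2 (YMR108W) and ILV6 (YCL009C) code for the catalytic and the regulatory subunit of acetolactate synthase. ILV2 stood at 1.15 at 1 h, -1.63 at 5 h and -1.17 at 8 h, and ILV6 at 0.43, -0.95 and -2.53 in those libraries. Both fell, with slopes of -0.31 ± 0.09 and -0.36 ± 0.05 (limma adjusted p = 0.0289 and 0.00118). The call for ILV2 was lost without the 1 h (adjusted p = 0.106), 2 h (0.0693) or 6 h library (0.0685), with equal spread (0.0751) and after quantile normalization (0.0715). That for ILV6 was lost in late against early libraries (0.0605).

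The next shared steps moved apart. ILV3 (YJR016C), the dihydroxyacid dehydratase, stood at 0.99, -0.69, -1.29, -2.01, -2.64, -2.81 and -2.84. It went lower in each successive library and fell with a slope of -0.53 ± 0.09 (limma adjusted p = 0.00318). ILV5 (YLR355C), the reductoisomerase of the step before it, which is also known to take part in the upkeep of mitochondrial DNA, stood at 1.29, -0.13, -0.14, -0.09, 0.95, 0.91 and 0.92. Its values were near the 0 h level from 2 to 4 h and above it at both ends of the course. Neither its line (slope 0.07 ± 0.09, limma adjusted p = 0.574) nor its spline (0.273) passed. Without the 1 h library it rose, with a slope of 0.22 and a limma adjusted p of 0.0223.

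BAT1 (YHR208W), the mitochondrial branched-chain aminotransferase of the last step, stood at 1.98, 0.36, 0.09, -0.71, -1.53, -1.25 and -1.53. It fell with a slope of -0.47 ± 0.09 (limma adjusted p = 0.00391). BAT2, which codes for the cytosolic aminotransferase of the same reaction and is not a member, stood at -0.45, -0.85, -0.48, 0.24, 1.01, 0.90 and 1.13. The 2 genes thus ran in opposite directions: BAT2 rose with a slope of 0.31 ± 0.06 (limma adjusted p = 0.00509), and both calls held with each library left out in turn. The difference of their slopes was not itself tested.

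In the leucine branch, LEU4 (YNL104C) and LEU9 (YOR108W) code for the isopropylmalate synthases of its first step and LEU1 (YGL009C) for the isomerase that follows. LEU1 stood at 1.82, 1.06, 1.08, 0.28, -0.19, -0.58 and -0.85. It was still 2-fold above 0 h at 3 h, later than the other members, and fell with a slope of -0.40 ± 0.05 (limma adjusted p = 0.000678). LEU4 stood at 1.68 at 1 h, -1.33 at 6 h and -0.64 at 8 h, with a slope of -0.33 ± 0.11 (limma adjusted p = 0.0414). That call was lost without the 1, 2, 3, 5 or 6 h library, with adjusted p between 0.0525 and 0.176, with equal spread (0.0666) and after quantile normalization (0.0702). LEU9 lay between -1.13 and 0.63 and changed by the spline (limma adjusted p = 0.00102), with a line at the edge of the threshold (0.0515). LEU2, the dehydrogenase gene of the same branch and no member, fell with a slope of -0.34 ± 0.04 (limma adjusted p = 0.000873).

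Lysine is made in fungi through alpha-aminoadipate, and from 3 h on at most 2 of its 7 genes were 2-fold from 0 h in any library. LYS20 (YDL182W) and LYS21 (YDL131W) code for the homocitrate synthases of the first step. LYS20 stood at 0.41 at 1 h, -1.05 at 6 h and -0.84 at 8 h, and LYS21 at 1.04, -0.68 and -0.89. Both fell, with slopes of -0.20 ± 0.04 and -0.25 ± 0.04 (limma adjusted p = 0.0101 and 0.00302). LYS12 (YIL094C), the homoisocitrate dehydrogenase gene, was below 0 h in all 7 libraries, between -1.48 at 6 h and -0.08 at 1 h, and changed by the spline (limma adjusted p = 0.00158) but not by the line (0.0824).

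The genes of the later lysine steps were each at least 2-fold above 0 h at 1 h, as was LYS21 of the first step (1.04). LYS1 (YIR034C), whose saccharopine dehydrogenase releases lysine in the last step, stood at 3.24, 1.28, 0.32, 0.04, -0.02, -0.13 and 0.58. It had the highest 1 h value of the members and lay close to its 0 h level from 3 to 6 h. It changed by the spline (limma adjusted p = 0.000246), and its line did not pass (slope -0.33 ± 0.13, adjusted p = 0.0853). LYS2 (YBR115C), the aminoadipate reductase gene, stood between 0.09 at 5 h and 1.52 at 1 h, above 0 h in all 7 libraries, and changed by the spline (adjusted p = 0.00626). LYS9 (YNR050C), the gene of the other saccharopine dehydrogenase, lay between -0.33 at 8 h and 1.17 at 1 h and fell with a slope of -0.18 ± 0.04 (limma adjusted p = 0.0148, and 0.132 in late against early libraries).

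LYS4 (YDR234W), the homoaconitase gene of the second enzyme, had another course. It stood at 0.38, -0.70, -0.44, -0.11, 0.55, 0.76 and 0.38, lowest at 2 h and highest at 6 h. Neither its line (slope 0.12 ± 0.07, limma adjusted p = 0.235) nor its spline (0.308) passed. Without the 1 h library it rose, with a slope of 0.22 and a limma adjusted p of 0.0303. LYS4 and ILV5 were the only members of the 35 tested with a slope above 0, and that of ILV5 was -0.0027 after quantile normalization.

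The aromatic path runs from erythrose 4-phosphate to chorismate and then to tryptophan, phenylalanine and tyrosine. ARO3 (YDR035W) and ARO4 (YBR249C) code for the DAHP synthases of the first step, known to be inhibited by phenylalanine and by tyrosine. ARO4 stood at 0.69, -0.91, -1.35, -1.80, -2.33, -2.46 and -2.43. It was below 0 h from 2 h on and fell with a slope of -0.41 ± 0.08 (limma adjusted p = 0.00607). ARO3 stood at 1.10, 0.63, -0.27, -0.69, -1.88, -0.92 and -0.75, with its lowest value in the 5 h library alone. Its slope was -0.30 ± 0.10 (limma adjusted p = 0.0448), and the call was lost without the 1, 2, 3, 4 or 6 h library, with adjusted p between 0.0547 and 0.162, with each library centred on its median (0.0506), with equal spread (0.0647) and after quantile normalization (0.0622).

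The middle of the path was split between a flat and a lowered gene. ARO1 (YDR127W), which codes for a protein with 5 enzyme activities on the way from DAHP to chorismate, stood at 0.16, 0.21, 0.18, 0.09, 0.14, -0.21 and -0.07. It had the narrowest range of the members, and neither its line (limma adjusted p = 0.332) nor its spline (0.375) passed. ARO2 (YGL148W), the chorismate synthase gene, stood at 0.66 at 1 h, -1.54 at 6 h and -0.86 at 8 h; it changed by the spline (limma adjusted p = 0.000213) but not by the line (0.0746). ARO8 (YGL202W), an aromatic aminotransferase gene at the end of the phenylalanine and tyrosine branches, stood at 2.09, 0.18, -0.63, -1.60, -2.06, -2.25 and -2.14. Its slope of -0.58 ± 0.11 (limma adjusted p = 0.00526) was the steepest of the aromatic genes.

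The tryptophan branch starts with anthranilate synthase, formed by the products of TRP2 (YER090W) and TRP3 (YKL211C). TRP2 stood at 0.97, -0.26, -1.05, -1.51, -1.93, -2.01 and -1.14, and TRP3 at 2.17, 1.44, 0.84, 0.76, 0.38, 0.07 and -0.10. TRP3 stayed at or above its 0 h level until 6 h, while TRP2 was below it from 2 h on. TRP3 fell (slope -0.31 ± 0.05, limma adjusted p = 0.00191). TRP2 had the same slope with a larger SE around a straight line (-0.31 ± 0.11, limma adjusted p = 0.0517) and changed by the spline (8.93e-05). Without the 8 h library TRP2 fell, with a slope of -0.58 and a limma adjusted p of 0.00164. TRP4 (YDR354W), the phosphoribosyltransferase gene of the next step, stood at 1.01, 0.74, -0.17, -0.65, -0.92 and -1.04 from 1 to 6 h. With genes of 5 or more values admitted it fell over those 6 libraries (slope -0.45, limma adjusted p = 0.00199). TRP5 (YGL026C), the tryptophan synthase gene of the last step, stood at 1.35 at 1 h, -1.87 at 6 h and -1.49 at 8 h and fell with a slope of -0.42 ± 0.09 (limma adjusted p = 0.00714).

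The threonine genes were the mildest of the set at 1 h, and none was 2-fold above 0 h in any library. HOM3 (YER052C), HOM2 (YDR158W) and HOM6 (YJR139C) code for aspartate kinase, the aspartate semialdehyde dehydrogenase and homoserine dehydrogenase, steps shared with methionine, and THR1 (YHR025W) and THR4 (YCR053W) for the kinase and the synthase that finish threonine. HOM3 stood at 0.75, -0.13, -0.80, -1.36, -2.09, -1.35 and -0.93, and HOM6 at -0.37, -0.88, -1.42, -2.13, -1.78, -1.97 and -1.13. Both had a low in the middle of the course and came part of the way back, and both changed by the spline (limma adjusted p = 0.000310 and 0.00102) but not by the line (0.0876 and 0.251). HOM2 lay between -0.60 and 0.30 and THR1 between -0.70 and -0.01, and neither passed by line (limma adjusted p = 0.101 and 0.338) or spline (0.0568 and 0.169). THR4 lay between -0.87 and 0.30 and fell with a slope of -0.14 ± 0.04 (limma adjusted p = 0.0322), a call lost without the 1, 3, 5, 6 or 8 h library (adjusted p between 0.0528 and 0.0990), with equal spread (0.125), after quantile normalization (0.113) and in late against early libraries (0.135).

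**Figure D3:**
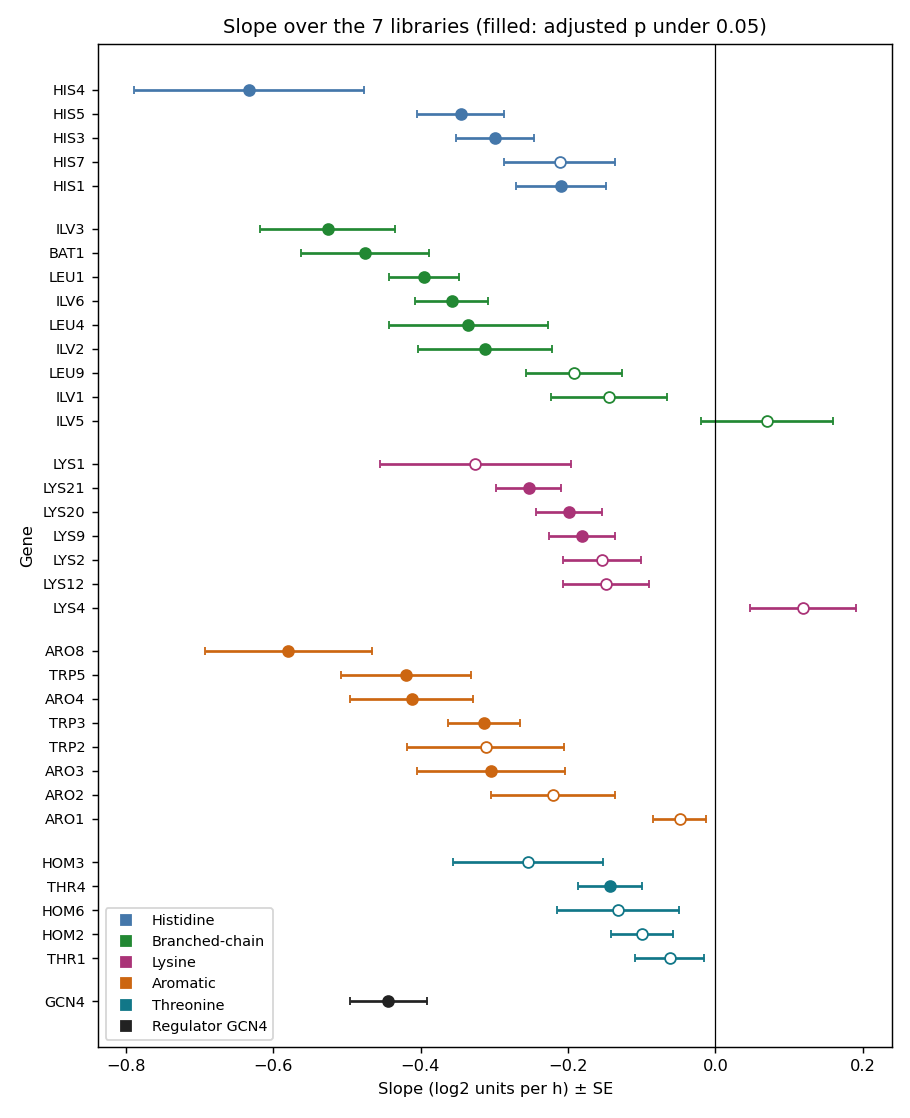
Slope of the log2 ratio per h (horizontal axis) with its SE for the 35 members tested, sorted within pathway (vertical axis); filled points passed a limma adjusted p of 0.05. HIS4, ARO8 and ILV3 lie farthest to the left, with slopes of -0.63, -0.58 and -0.53, and only ILV5 and LYS4 lie right of 0, ILV5 not so after quantile normalization (-0.0027).

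GCN4 (YEL009C) itself kept another timing than the median of the enzyme genes. It stood at 0.06, 0.34, -0.10, -0.83, -0.95, -1.77 and -2.77. It was near its 0 h level until 3 h and lowest in the last library. From 1 to 2 h, where the enzyme genes had a median change of -0.89, GCN4 went up by 0.28. Of the 35 enzyme genes 33 went down in that step and 2 went up, ARO1 and THR1, by 0.05 each. From 6 to 8 h, where the median change of the enzyme genes was 0.02, GCN4 went down from -1.77 to -2.77. That drop was not particular to GCN4. In the same step 16 enzyme genes went down and 18 up, and ILV6 changed by -1.09 and HIS3 by -0.68. The slope of GCN4 was -0.44 ± 0.05 (limma adjusted p = 0.000646), with an adjusted p of 0.00037 without the 1 h and 0.00429 without the 8 h library. The difference between the course of GCN4 and that of the enzyme genes was not tested.

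Members were compared in 6 pairs within each array, where the 0 h array enters only as a constant. The difference of the log2 ratios was regressed on time. The slope was tested with a two-sided exact permutation test over all orders of the 7 libraries, whose smallest p is 0.000397. Benjamini-Hochberg adjustment was made over the 6 pairs. The test takes the libraries as exchangeable, which successive samples of 1 course need not be. Like the limma p-values, its p-values do not measure the spread between cultures. HIS7 and ARO4 are neighbours on their chromosome. The difference HIS7 minus ARO4 was 0.10, 0.57, 0.97, 0.80, 1.17, 1.20 and 1.69 over the 7 libraries, so ARO4 lay further below HIS7 late in the course than at 1 h. Its slope was 0.20 ± 0.03 log2 units per h (exact permutation p = 0.00179, adjusted p = 0.0107). With the spread of the libraries made equal the slope was 0.13 and the adjusted p 0.105, and without the 2 h library it was 0.21 with an adjusted p of 0.05.

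The 3 isoenzyme pairs and the 2 subunit pairs did not pass. The slope of the difference was 0.11 ± 0.08 for ARO3 minus ARO4 (exact permutation adjusted p = 0.388), although ARO3 stood above ARO4 in all 7 libraries, by 0.41 to 1.69. It was 0.06 ± 0.03 for LYS20 minus LYS21 and -0.14 ± 0.07 for LEU4 minus LEU9 (exact permutation adjusted p = 0.281 for both); the latter was -0.29 with an adjusted p of 0.0250 without the 8 h library. It was 0.05 ± 0.12 for ILV2 minus ILV6 (exact permutation adjusted p = 0.878) and 0.0019 ± 0.09 for TRP2 minus TRP3 (0.986). A p that misses the threshold does not show that the genes of a pair ran alike: TRP2 minus TRP3 lay between -2.31 and -1.04 over the 7 libraries. LYS20 and LYS21, and LEU4 and LEU9, are close copies, and their probes may share signal, which was not tested.

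**Figure D4:**
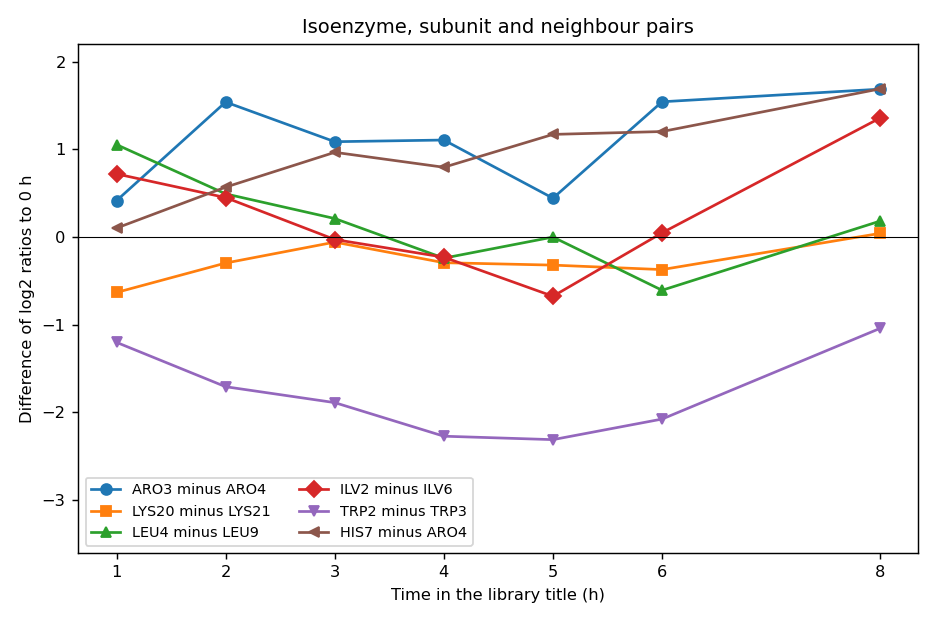
Difference of the log2 ratios to 0 h within each array (vertical axis) against time in h (horizontal axis) for the 6 pairs; each point is 1 library. HIS7 minus ARO4 goes from 0.10 at 1 h to 1.69 at 8 h, and TRP2 minus TRP3 lies below -1 throughout.

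A list of 10 further enzyme genes of these pathways and 6 regulators was read beside the members. Of the 10 enzyme genes 4 fell (HIS2, LEU2, LYS5 and TRP1) and 2 rose (BAT2 and TYR1), where 15.1% of all genes fell and 18% rose, so that 2 of 10 rising is near the background. HIS2, the histidinol phosphatase gene, stood at 0.84 at 1 h and -1.61 at 8 h with a slope of -0.34 ± 0.04 (limma adjusted p = 0.000698). HIS6, the isomerase gene of the same path, lay between -1.08 at 8 h and 0.09 at 4 h. Its line did not pass (limma adjusted p = 0.429), but it changed by the spline (0.00246). TYR1, the prephenate dehydrogenase gene of tyrosine synthesis, rose from -0.05 at 1 h to 1.52 at 8 h (slope 0.24 ± 0.04, limma adjusted p = 0.00310). LYS5, whose product activates the aminoadipate reductase, fell from 0.98 to -0.07 (limma adjusted p = 0.0142). TRP1 was below 0 h in all 7 libraries, between -2.19 and -1.09, and fell with a slope of -0.15 ± 0.04 (limma adjusted p = 0.0245). That call was lost without the 1, 2, 3 or 6 h library (adjusted p between 0.0558 and 0.0704), with equal spread (slope -0.015, adjusted p = 0.796), after quantile normalization (-0.06, 0.247) and in late against early libraries (0.0570).

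Among the 5 regulators tested 2 rose and 1 fell, with 18% and 15.1% for all genes, and LYS14 had no value. LEU3, the zinc cluster regulator of the leucine and valine genes, stood at 0.82, 0.36, 0.73, 1.03, 2.12, 2.29 and 2.85 and rose with a slope of 0.37 ± 0.06 (limma adjusted p = 0.00232, and a slope of 0.22 with 0.0220 after quantile normalization). Its mRNA was thus highest in the libraries of 5, 6 and 8 h, where LEU1, LEU4 and BAT1 were below their 0 h level. Of the 9 branched-chain members 8 were below 0 h in each of these libraries. ILV5 was above it, at 0.95, 0.91 and 0.92. PHO2, a homeodomain factor that acts with Bas1 on HIS4, rose from 0.43 at 1 h to 2.53 at 6 h and 2.26 at 8 h (slope 0.32 ± 0.05, limma adjusted p = 0.00269, and a slope of 0.21 with 0.0159 after quantile normalization). BAS1 stood at 1.73 at 1 h, -0.07 at 4 h and 1.70 at 8 h and changed by the spline (limma adjusted p = 0.0161). GCN1, which acts with the kinase Gcn2 upstream of GCN4, fell with a slope of -0.11 ± 0.04 (limma adjusted p = 0.0426), a call lost without any 1 of the 1, 2, 3, 4, 5 and 8 h libraries (adjusted p between 0.0670 and 0.185), with centring (slope -0.10, adjusted p = 0.0572), with equal spread (-0.06, 0.216), after quantile normalization (-0.07, 0.189) and in late against early libraries (0.226).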

How the data were processed

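Arrays with 2 colours, 1 per time point, were read from the table of values deposited by the authors. By the authors' design text, each time point was set against a meiotic RNA mix, this ratio was divided by that of 0 h, and log2 was taken; the deposited unit is therefore a log2 ratio to 0 h. The sources used here give no background correction, spot filter, array scaling or probe sequence. Without spot intensities, signal over background is unknown, and the number of arrays limits the precision.

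The time in each title gave the group. Slopes and splines were fitted to 5349 genes with limma 3.58.1 (lmFit, eBayes) in R 4.3.3, with 5 residual degrees of freedom for the line, and were tested on simulated data. Gene symbols matched RefSeq R64. All members, the 10 other enzyme genes and the 6 other regulators were named by list. The members and lists were chosen with earlier results of these data known. Counts, pair tests and plots used Python 3.11.15 with pandas 2.3.3, numpy 2.4.6 and matplotlib 3.10.9. The alternatives were centring, equal spread, quantile normalization, other time scales, late against early libraries, admitting genes with 5 or more values, robust eBayes, and leaving out each library.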

Additional observations from a re-analysis of the deposited data

How the results depend on the processing

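No paired analysis was possible because each time point has 1 library. The count of 20 falling members lay between 15 and 30, that of rising members (0) between 0 and 2 and that of members changed by the spline (30) between 29 and 33 with each library left out. In the same fits the falling counts were 3 to 5 for histidine, 4 to 8 for branched-chain, 3 to 6 for lysine, 4 to 8 for aromatic and 0 to 2 for threonine genes. The shares of all genes in these fits are not given here. Of the 20 members that fell, 15 fell with every library left out in turn, and 14 of those also under centring, equal spread and quantile normalization, HIS4 being the exception. In late against early libraries 16 members fell, and HIS3, ILV6 and LYS9 of those 14 were lost, which leaves 11 with the same call under every alternative of the line. The lysine count of 3 was 6 with 8 h taken as 6 h and 5 with ranked times. The threonine count of 1 was 2 under both of these, and 0 with equal spread, quantile normalization or late against early libraries. The slope of ILV5 was -0.0027 after quantile normalization.

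The slope of HIS7 minus ARO4 was 0.13 (exact permutation adjusted p = 0.105) with equal spread. TRP2 minus TRP3 had 0.17 (adjusted p = 0.0357) after quantile normalization, -0.062 with 8 h as 6 h and -0.024 with ranked times, and ILV2 minus ILV6 had -0.011 with equal spread and -0.029 with 8 h as 6 h. With each library left out the pair slopes lay between 0.050 and 0.16 for ARO3 minus ARO4, 0.17 and 0.21 for HIS7 minus ARO4, -0.20 and 0.14 for ILV2 minus ILV6, -0.29 and -0.073 for LEU4 minus LEU9, 0.027 and 0.069 for LYS20 minus LYS21, and -0.19 and 0.094 for TRP2 minus TRP3. The cause of these shifts was not tested.

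Members 2-fold lower than 0 h numbered 0 at 2 h, and 3 with equal spread and 2 after quantile normalization; at 8 h they numbered 14, and 9 under both. Members 2-fold higher at 3 h numbered 1, and 2 after quantile normalization. For all genes, the shares under these scalings are not given here. With 1 h as baseline, by construction, 17, 25, 29, 30, 31 and 28 members were 2-fold lower at 2, 3, 4, 5, 6 and 8 h, and 0 were 2-fold higher at 2 and at 3 h.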
